A study of Mus musculus with 8 samples.

Results

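Translation initiation and elongation factors are the proteins that bring an mRNA and the initiator tRNA to the ribosome and then drive the ribosome along the coding sequence. Their mRNAs were followed in murine bone marrow-derived macrophages (BMDMs, here Mϕ) with and without uptake of apoptotic cells, called efferocytosis, and with and without LPS/IFNγ. The genes were chosen by name, as protein-coding genes whose symbol starts with Eif or Eef, leaving out the eIF2 kinases (Eif2ak), and whose normalized counts averaged 10 or more over the 8 samples. A normalized count is the number of reads on a gene divided by a size factor of the sample. Of 84 such genes in the annotation, 63 met the minimum, among 16309 genes of any kind that did. The remaining 21, most of them copies of Eif1ad, had lower means, and 10 of them were listed at 0 in all samples. Just inside the minimum were Eif4ebp3 with a mean of 22.2 and Eif3j1 with 22.7, and just outside were Eef1akmt3 with 4.60 and Eif4a3l2 with 3.14.

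BMDMs came from adult C57BL/6 wildtype mice, male and female, and differentiation used M-CSF and GM-CSF at 20 ng/mL each. Ctrl cells were naïve and untreated, and LPS cells were naïve and received 100 ng/mL LPS with 100 U/mL murine IFNγ for 6 h. Eff cells were kept for 16 h with apoptotic NIH-3T3 fibroblasts at a ratio of 1:5 with 10 nM dimerizer, and LPSEff cells were treated likewise, washed and then given LPS/IFNγ for 6 h. The fibroblasts are a line that expresses a caspase-8 domain which the dimerizer activates, and they are of mouse origin, so their RNA cannot be told from that of Mϕ by species. CD45+ cells were isolated with magnetic beads, and total RNA was sequenced after removal of rRNA. Each group held 2 samples. The labels do not say whether these came from separate animals or cultures, so p-values measure only the spread between these samples, which may be technical.

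Depth ranged from 3481288 reads in Ctrl replicate 1 to 12020918 in Ctrl replicate 2, and 3 reads corresponded to 1.73 to 5.71 normalized counts depending on the sample (counting error only). A list of 10 macrophage markers, with Lyz2, Itgam and Csf1r, summed to between 108856 and 164148 normalized counts in all samples, and 6 T and B cell markers summed to 14.0 to 28.9. A list of 10 fibroblast markers summed to 327 to 449 in Ctrl, 1886 to 4064 in LPS, 1726 to 3344 in Eff and 4931 to 5965 in LPSEff. Of the 9 fibroblast markers tested, Col1a1, Col1a2, Col3a1 and Col6a3 were higher with efferocytosis in both comparisons, and Lox, Pdgfrb and Cdh11 were higher in LPS than in Ctrl (limma, adjusted p under 0.05). Neutrophil markers (6 genes) summed to 614 to 863 in Ctrl, 1412 to 1603 in LPS, 1025 to 1246 in Eff and 1534 to 2028 in LPSEff, with S100a8 and S100a9 making up most of each sum. The part of other cells in the results below was not tested, and in bulk samples fewer cells of a type and less RNA per cell cannot be told apart.

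During initiation, eIF2 carries the initiator tRNA to the small ribosomal subunit and eIF2B reloads eIF2 with GTP, while eIF3 organises the small subunit. eIF4F, made of the cap-binding eIF4E, the scaffold eIF4G and the helicase eIF4A, recruits capped mRNAs, and 4E-binding proteins withhold eIF4E from the scaffold until mTOR phosphorylates them. In elongation, eEF1A delivers charged tRNAs and eEF2 translocates the ribosome, unless eEF2 kinase phosphorylates eEF2 and slows it. Activated Mϕ are known to adjust translation through mTOR, the eIF2 kinases and the MAPK-interacting kinases.

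On the deposited scale the estimates for the mRNAs of most factors lay within 1.5-fold of the unstimulated level, and a few regulators changed with LPS/IFNγ. Scaling the samples to equal totals called 22 genes in naïve and 27 in efferocytic Mϕ, all lower. Of all genes, 35.2% and 34.2% were then called, and 26.5% and 26.7% were lower. Quantile normalization called 14 and 15, against 25.4% and 22.9% of all genes. A fit with a replicate block, a term for the replicate number, called 14 and 12, against 41.2% and 37% of all genes. In naïve Mϕ (LPS vs Ctrl), 7 of 63 genes (11.1%) passed an adjusted p of 0.05 (limma on log2(normalized count + 1), Benjamini-Hochberg over all 16309 genes), against 24% of all genes. Of these 7, Eif6 rose (12.4% of all genes rose), and Eef2k, Eef2kmt, Eif2b3, Eif4ebp2, Eef1e1 and Eif2d fell (11.6% of all genes fell). In efferocytic Mϕ (LPSEff vs Eff), 4 genes (6.35%) passed, against 19.7% of all genes. Eif6 again rose (background 10.7%), and Eef2k, Eif4ebp2 and Eef2kmt fell (background 8.95%). Without Ctrl replicate 1, the shallowest library, Eef2k and Eif4ebp2 alone of the 7 passed in LPS vs Ctrl, and without Ctrl replicate 2 these and Eef2kmt. Without LPS replicate 1, Eef1e1, Eif2b3 and Eif6 did not pass, and without LPS replicate 2, Eif2b3 did not. Each of these fits left 1 sample in a group, and fewer of all genes were called in them too. Lost calls are therefore not particular to these genes. The median log2 difference of the 63 genes was -0.09 in naïve and -0.12 in efferocytic Mϕ, beside -0.01 and 0.01 for all genes. Of the 63 genes, 54 (85.7%) differed by less than 1.5-fold in LPS vs Ctrl, compared with 52.4% of all genes, and 49 (77.8%) in LPSEff vs Eff, compared with 55.2%. The 95% interval stayed within 2-fold either way for 42 of the 63 in LPS vs Ctrl and for 40 in LPSEff vs Eff. The LPS samples lay above both Ctrl samples for 10 genes and below both for 21, where 28.4% and 30.9% of all genes did so. The LPSEff samples lay above both Eff samples for 10 and below both for 27, compared with 29.5% and 30.4% of all genes.

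**Figure D1:**
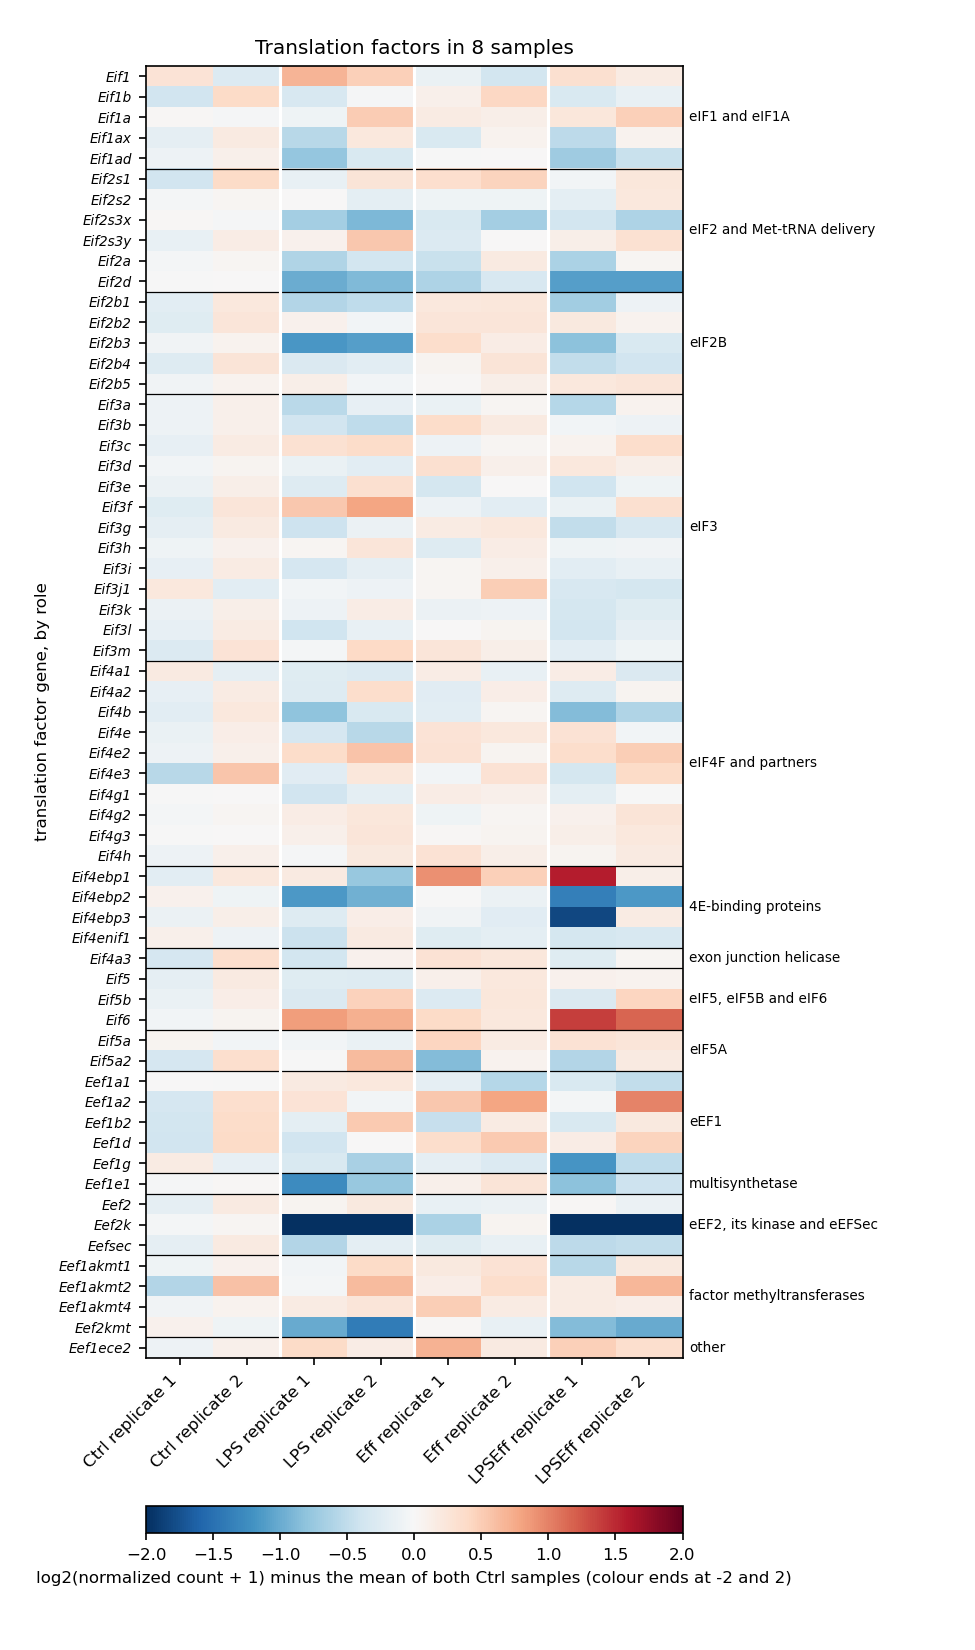
Heat map of log2(normalized count + 1) of 63 translation factor genes (rows, ordered by role) in 8 samples (columns), drawn as the difference from the mean of the Ctrl samples. Red is higher and blue lower, with the colours ending at -2 and 2. Eef2k, Eif4ebp2, Eef2kmt and Eif2d are blue in all 4 stimulated samples, and Eif6 is red in them.

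Eef2k encodes eEF2 kinase, which slows elongation by phosphorylating eEF2, and had the largest difference of the 63 genes in both comparisons with LPS/IFNγ. It lies on chromosome 7 (120441877 to 120506674, + strand, GRCm39). Its normalized counts were 179 and 189 in Ctrl, 31.0 and 35.5 in LPS, and 118 and 191 in Eff against 16.6 and 31.7 in LPSEff. All 4 stimulated samples lay below all 4 unstimulated ones. On the log2 scale Eef2k fell by 2.43 (SE 0.37, adjusted p = 0.00251, limma) in naïve Mϕ, to 18.5% of Ctrl. In efferocytic Mϕ it fell by 2.65 (SE 0.37, adjusted p = 0.00193, limma), to 15.9% of Eff. The effects in both contexts differed by -0.22 (95% interval -1.41 to 0.97), so a difference between contexts was not detectable.

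Eef2, the translocase that this kinase modifies, had the highest level of the 63 genes per kilobase of canonical transcript, at 2550 normalized counts per kb (mean of 8 samples). Its normalized counts were 6981 and 8997 in Ctrl, 8241 and 9031 in LPS, and 7132 and 7294 in Eff against 8038 and 7296 in LPSEff. The LPS and Ctrl ranges overlapped, and the log2 difference was 0.12 (95% interval -0.35 to 0.59) in naïve and 0.09 (-0.38 to 0.56) in efferocytic Mϕ. This direction turned with the scaling, to -0.28 (adjusted p = 0.289) and -0.36 (adjusted p = 0.173) with equal totals, and Eef2 was called lower after quantile normalization (-0.75, adjusted p = 0.0156, and -0.76, adjusted p = 0.0165). Eef2kmt, a methyltransferase that modifies eEF2, lies on chromosome 16 (5057131 to 5073888, - strand, GRCm39). It had 268 and 237 normalized counts in Ctrl, 125 and 95.5 in LPS, and 255 and 228 in Eff against 137 and 124 in LPSEff. No stimulated sample reached an unstimulated one, and Eef2kmt fell by 1.20 (SE 0.22, adjusted p = 0.00626, limma) in naïve and by 0.88 (SE 0.22, adjusted p = 0.0255) in efferocytic Mϕ. The second fall did not pass when any of the 4 samples compared was left out. Of its exon bases, 60.4% overlap genes on the opposite strand, mainly Alg1, and htseq-count by default assigns reads by strand. On the deposited scale the other 3 methyltransferases, which modify eEF1A, did not pass in either comparison. Neither did the selenocysteine factor Eefsec, whose log2 difference was -0.40 (SE 0.27) in LPS vs Ctrl. With equal totals Eef1akmt1 and Eef1akmt4 were called lower in LPSEff vs Eff, and Eefsec in both comparisons.

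**Figure D2:**
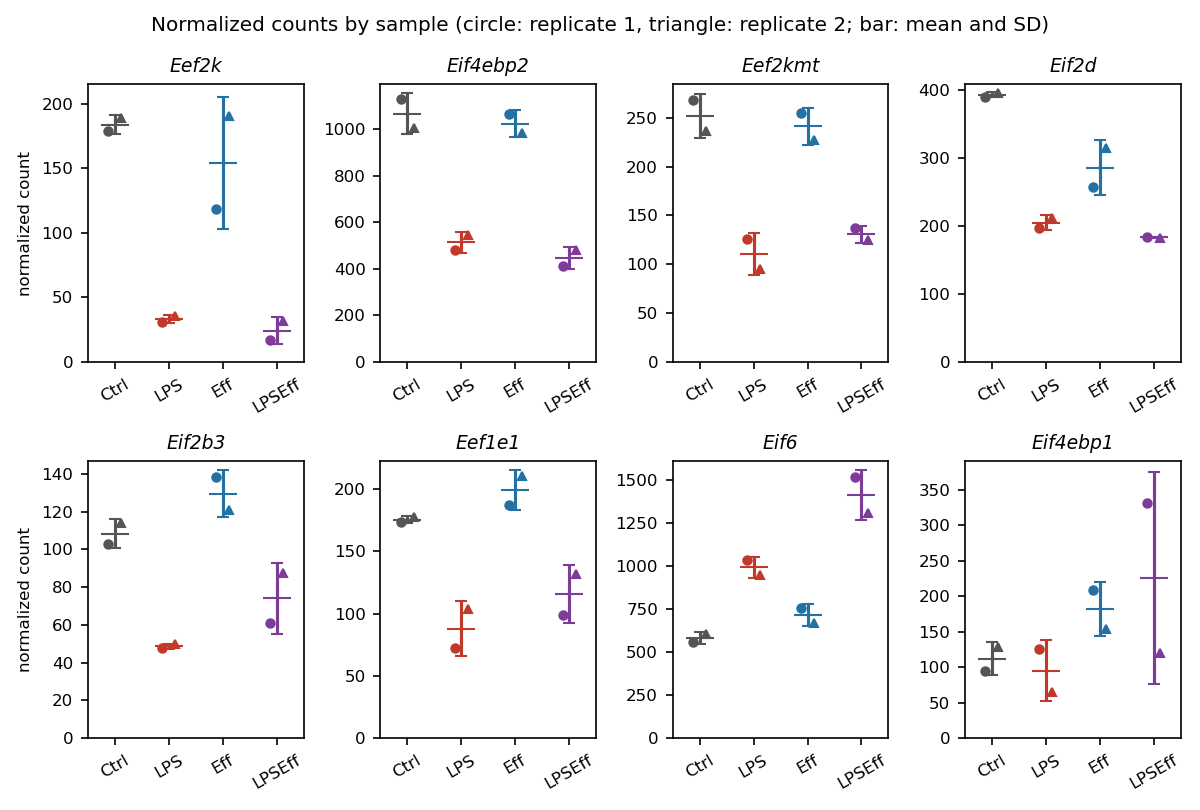
Normalized counts (y axes from 0) in the 4 groups for the 7 genes that passed in LPS vs Ctrl and for Eif4ebp1. Points are the samples, and bars show mean and SD (n = 2 per group). Stimulated samples of Eef2k lie between 16.6 and 35.5 and unstimulated ones between 118 and 191.

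Eif4ebp2 encodes 4E-BP2, a repressor that binds eIF4E, and lies on chromosome 10 (61264032 to 61288567, - strand, GRCm39). Its normalized counts were 1129 and 1006 in Ctrl, 481 and 546 in LPS, and 1066 and 984 in Eff against 413 and 478 in LPSEff. Each stimulated sample held less than each unstimulated one. Eif4ebp2 fell by 1.05 (SE 0.18, adjusted p = 0.00423, limma) in naïve and by 1.20 (SE 0.18, adjusted p = 0.00274) in efferocytic Mϕ. The paralogue Eif4ebp1 had 95.2 and 128 normalized counts in Ctrl, 125 and 65.0 in LPS, and 209 and 155 in Eff against 331 and 121 in LPSEff. The LPS and LPSEff ranges overlapped, and no comparison of Eif4ebp1 passed. Eif4ebp3, the least abundant, was at 6.33 and 27.9 in LPSEff and between 20.7 and 27.4 in the other samples, and 35.0% of its exon bases are shared with Maskbp3 on the same strand.

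None of the 10 genes of eIF4F and its partners passed in LPS vs Ctrl or LPSEff vs Eff (limma, deposited scale, no replicate block), and 1 had an unadjusted p under 0.05 in each. With the block Eif4b was called lower in both comparisons and Eif4e2 higher in LPS vs Ctrl. With equal totals 3 of the 10 were lower in each comparison, where 26.5% and 26.7% of all genes were. With quantile normalization 3 and 4 were, where 14.1% and 12.9% of all genes were. Eif4g1 and Eif4b were among the genes lower under both scalings in both comparisons. Eif4e, the cap-binding subunit, had 183 and 222 normalized counts in Ctrl, 159 and 137 in LPS, and 244 and 232 in Eff against 247 and 193 in LPSEff. Both LPS samples were below both Ctrl samples, with a log2 difference of -0.45 (95% interval -0.95 to 0.06, adjusted p = 0.190, limma), and with equal totals Eif4e was called (-0.84, adjusted p = 0.0235). Eif4g1, the scaffold, was at 4939 and 5033 in Ctrl, 3805 and 4343 in LPS, and 5502 and 5348 in Eff against 4353 and 4969 in LPSEff. Its log2 difference was -0.29 (95% interval -0.71 to 0.12) in naïve and -0.22 (-0.64 to 0.19) in efferocytic Mϕ. The helicase genes Eif4a1 and Eif4a2 differed by -0.26 (SE 0.23) and 0.05 (SE 0.26) in LPS vs Ctrl. Per kilobase of canonical transcript, Eif4g1 (747 normalized counts per kb) was above Eif4a2 (269), Eif4a1 (179) and Eif4e (40.5). However, 85.2% of the 50-base windows of the Eif4a1 transcript also occur elsewhere in the genome, outside its own locus, so its count is uncertain.

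Eif6 was the only gene of the 63 called higher with limma on the deposited scale without a replicate block. In LPS vs Ctrl DESeq2 also called Eif3f higher, and the block called Eif3f and Eif4e2 higher. The product of Eif6 binds the large ribosomal subunit and keeps it from joining the small one, and the gene lies on chromosome 2 (155661748 to 155668845, - strand, GRCm39). Its normalized counts were 558 and 608 in Ctrl, 1037 and 949 in LPS, and 759 and 671 in Eff against 1517 and 1308 in LPSEff. Stimulated samples lay above unstimulated ones without overlap, by 1.70-fold in naïve (log2 0.77, SE 0.18, adjusted p = 0.0154, limma) and 1.97-fold in efferocytic Mϕ (log2 0.98, SE 0.18, adjusted p = 0.00635). Scaling all samples to equal totals took the log2 differences to 0.37 (adjusted p = 0.162, limma) and 0.53 (adjusted p = 0.0580), so the direction held and the calls did not. The naïve rise was also not called with quantile normalization or in a fit of only the groups compared. Both of these called the efferocytic rise. The naïve rise was further lost with samples left out, as given above. In efferocytic Mϕ the rise did not pass without Eff replicate 2 or LPSEff replicate 1. Eif5, which triggers GTP hydrolysis on eIF2, and Eif5b, which joins the subunits, differed by -0.25 (SE 0.18) and 0.08 (SE 0.33) in LPS vs Ctrl. With equal totals Eif5 was called lower in both comparisons, where 26.5% and 26.7% of all genes were. With quantile normalization it was called lower in LPS vs Ctrl, where 14.1% of all genes were.

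In the eIF2 group, Eif2d, which can deliver tRNA to the ribosome without eIF2, had 390.4 and 396 normalized counts in Ctrl, 197 and 212 in LPS, and 257 and 315 in Eff against 184 and 183 in LPSEff. It lies on chromosome 1 (131080893 to 131115395, + strand, GRCm39). It fell by 0.94 (SE 0.19, adjusted p = 0.00913, limma) in naïve Mϕ, and the log2 difference in efferocytic Mϕ was -0.63 (adjusted p = 0.0510). Eif2s1, the subunit that the eIF2 kinases phosphorylate, had 289 and 494 normalized counts in Ctrl and 343 and 452 in LPS, which overlapped. It had 475 and 518 in Eff against 363 and 442 in LPSEff, without overlap, and did not pass in either comparison on the deposited scale. With equal totals Eif2a, Eif2d and Eif2s3x were called lower in LPS vs Ctrl, where 26.5% of all genes were. Eif2d and Eif2s1 were in LPSEff vs Eff on that scale, where 26.7% of all genes were. The gamma subunit has an X-linked and a Y-linked gene, and the cells came from mice of both sexes. Xist, the X-linked RNA of female cells, was at 343 and 448 normalized counts in Ctrl, 601 and 663 in LPS, and 293 and 384 in Eff against 317 and 270.3 in LPSEff. The Y-linked Ddx3y lay between 199 and 279 in the 8 samples. The part of the mix of sexes in the values of the gamma subunit genes was not tested. Eif2s3x differed by -0.78 (SE 0.25, adjusted p = 0.0585) and Eif2s3y by 0.31 (SE 0.24, adjusted p = 0.416) in LPS vs Ctrl (limma), and 93.1% of the windows of Eif2s3x also occur elsewhere in the genome.

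Of the eIF2B subunits, Eif2b3 passed in naïve Mϕ. The gene, for the gamma subunit, lies on chromosome 4 (116876588 to 116945947, + strand, GRCm39) and had 103 and 114 normalized counts in Ctrl, 47.9 and 49.8 in LPS, and 138 and 121 in Eff against 61.0 and 87.6 in LPSEff. It fell by 1.13 (SE 0.26, adjusted p = 0.0165, limma) in naïve Mϕ, and the log2 difference in efferocytic Mϕ was -0.81 (adjusted p = 0.0644). The difference between both effects was 0.32 (95% interval -0.53 to 1.17), so passing in 1 context does not set the contexts apart. Eif2b1, Eif2b2, Eif2b4 and Eif2b5 differed by -0.55, 0.02, -0.25 and 0.04 in LPS vs Ctrl and by -0.62, -0.12, -0.59 and 0.15 in LPSEff vs Eff. None of these passed with limma on the deposited scale without a replicate block. With the block Eif2b1 was called lower in both comparisons, and Eif2b3 and Eif2b4 in LPSEff vs Eff. Of all genes, 20.7% and 18% were lower with the block. With equal totals Eif2b1, Eif2b3 and Eif2b4 were called lower in both comparisons, where 26.5% and 26.7% of all genes were.

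The 13 genes of eIF3 gave log2 differences between -0.44 and 0.66 in LPS vs Ctrl and between -0.60 and 0.25 in LPSEff vs Eff. None passed with limma on the deposited scale without a replicate block, with 2 and 1 at an unadjusted p under 0.05. With the block Eif3f was called higher and Eif3b lower in LPS vs Ctrl, and Eif3g lower in LPSEff vs Eff. With equal totals 6 and 7 of the 13 were lower, where 26.5% and 26.7% of all genes were. With quantile normalization 3 and 4 were, where 14.1% and 12.9% of all genes were. DESeq2 called 1 higher in LPS vs Ctrl, Eif3f. In efferocytic Mϕ 11 of the 13 differences were negative, and so were those of 8102 of all 16309 genes. None of the 5 genes of eIF1 and eIF1A, the 2 of eIF5A or the exon junction helicase gene Eif4a3 passed in either comparison with limma on the deposited scale without a replicate block. Eif1ad was called lower in both comparisons with the block and with equal totals. With equal totals Eif1b and Eif4a3 were also called lower in LPSEff vs Eff. Eif1, which guards start codon choice, differed by 0.58 (SE 0.28, adjusted p = 0.178), and Eif5a, which relieves stalled ribosomes, by -0.09 (95% interval -0.49 to 0.30) in LPS vs Ctrl.

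The 5 genes of eEF1 did not pass in these comparisons on the deposited scale either, and with equal totals Eef1g was called lower in LPSEff vs Eff. Eef1a1, which delivers tRNAs, had 2277 and 2255 normalized counts in Ctrl, 2558 and 2625 in LPS, and 1999.7 and 1532 in Eff against 1834 and 1614 in LPSEff. The log2 difference was 0.19 (95% interval -0.24 to 0.63) for LPS vs Ctrl, and 72.6% of the windows of Eef1a1 also occur elsewhere in the genome. Eef1b2, its exchange factor, spread more between replicates (2015 and 3343 in Ctrl) than between groups, and Eef1a2, the form of muscle and neurons, lay between 19.0 and 49.5 normalized counts. Eef1e1, a scaffold of the multisynthetase complex despite its name, fell by 1.01 (SE 0.26, adjusted p = 0.0241, limma) in naïve Mϕ, from 173 and 178 normalized counts in Ctrl to 72.4 and 104 in LPS. It had 188 and 210.3 in Eff and 99.0 and 132 in LPSEff, a log2 difference of -0.79 (adjusted p = 0.0660). The gene lies on chromosome 13 (38828183 to 38843034, - strand, GRCm39). The readthrough gene Eef1ece2, which did not pass, shares 100% of its exon bases with Ece2 and Eef1akmt4. For 13 of the 63 genes, 20% or more of the windows also occur elsewhere in the genome, and none of the 7 called is among them.

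**Figure D3:**
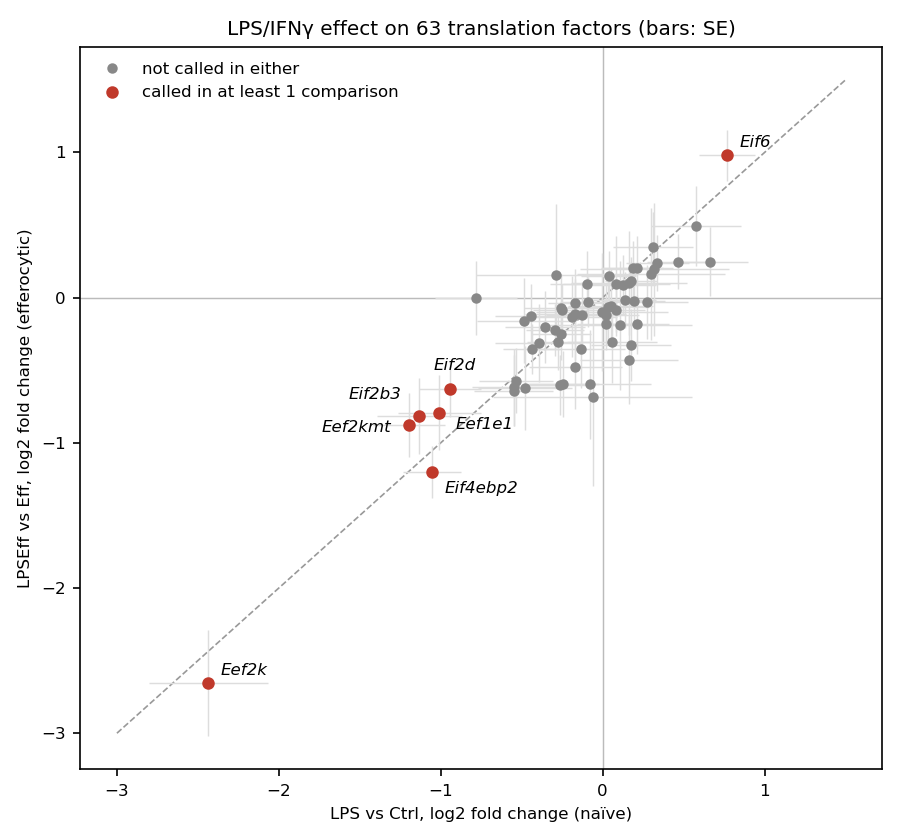
Log2 difference with LPS/IFNγ in naïve Mϕ (x axis, LPS vs Ctrl) and in efferocytic Mϕ (y axis, LPSEff vs Eff) of 63 genes, with SE bars and a dashed line of equal effects. The 7 genes that passed in LPS vs Ctrl are red, Eef2k lies at -2.43 and -2.65, and Eif6 lies at 0.77 and 0.98.

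Across the 63 genes both effects of LPS/IFNγ, which share no samples, had a Pearson correlation of 0.866 and a Spearman correlation of 0.748, with the same sign for 48 genes. Genes are not independent replicates. No gene passed in the test of the difference between both effects (limma 0 called and 0 at an unadjusted p under 0.05, edgeR 0 and DESeq2 0 called), and 0% of all genes did. The differences ranged from -0.62 to 0.78, the latter for Eif2s3x. For 35 of the 63 genes the 95% interval stayed within 2-fold either way.

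Efferocytosis alone gave no called factor. In Eff vs Ctrl, 0 of 63 genes passed (limma, edgeR and DESeq2), against 0.251%, 0.0858% and 1.27% of all genes. Of the 63, 1, 1 and 0 had an unadjusted p under 0.05. Differences ranged from -0.49 to 0.69, and for 51 genes the 95% interval stayed within 2-fold either way. The highest was Eif4ebp1 (0.69, 95% interval -0.44 to 1.82), and the gene with an unadjusted p under 0.05 was Eif2d (-0.47, -0.90 to -0.03, adjusted p = 0.758, limma). The 5 eIF2B subunits had differences between 0.07 and 0.25, none of which passed.

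In LPSEff vs LPS, 0 of 63 genes passed (limma without a replicate block, edgeR and DESeq2), against 0.773%, 0.773% and 2.26% of all genes. Of the 63, 5, 5 and 4 had an unadjusted p under 0.05. With the block Eef1a1 was called lower, where 2.65% of all genes were. Eif4ebp1 differed by 1.14 (SE 0.49, adjusted p = 0.482, limma), between 0.41 and 1.86 when any 1 sample was left out. Eif4e differed by 0.56 (95% interval 0.06 to 1.07, adjusted p = 0.421), Eif6 by 0.51 (0.10 to 0.91, adjusted p = 0.346) and Eef1a1 by -0.59 (-1.02 to -0.16, adjusted p = 0.293). Eef2 differed by -0.17 (95% interval -0.64 to 0.30). Both comparisons with efferocytosis share samples with those of LPS/IFNγ.

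The 63 genes together held a similar sum in all samples, from 52608 to 61465 normalized counts. As a share of all normalized counts this was 0.797% and 0.884% in Ctrl, 0.621% and 0.635% in LPS, and 0.857% and 0.851% in Eff against 0.598% and 0.615% in LPSEff. The shares of stimulated and unstimulated samples did not overlap. Scaled to equal totals, the median of all genes moved to -0.40 in LPS vs Ctrl and -0.44 in LPSEff vs Eff, and 24.8% and 21.8% of the calls were higher, compared with 51.5% and 54.6% on the deposited scale. On that scale 22 of the 63 genes were lower in LPS vs Ctrl and 0 higher, against 35.2% of all genes called, 26.5% lower and 8.71% higher. In LPSEff vs Eff 27 were lower and 0 higher, against 34.2% called, 26.7% lower and 7.46% higher. Their median was then -0.49 and -0.57, which is -0.09 and -0.13 relative to all genes.

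**Figure D4:**
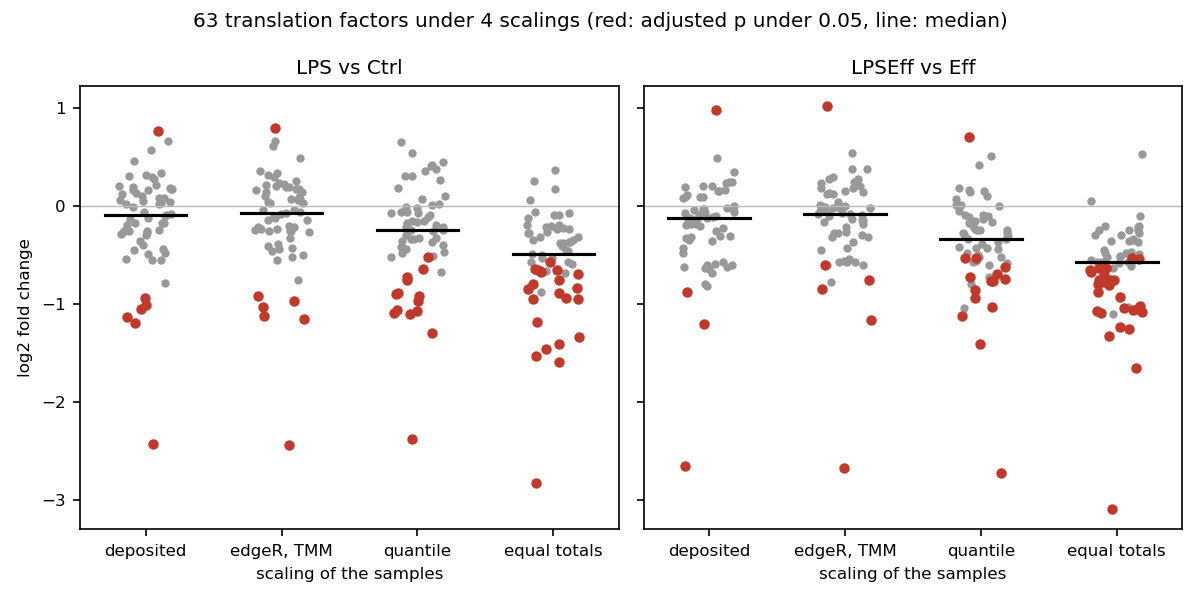
Log2 differences of the 63 genes with LPS/IFNγ in naïve and efferocytic Mϕ under the deposited scale, edgeR, quantile normalization and equal totals. Each point is a gene, red points passed, and the line is the median, which lies at -0.09 and -0.12 on the deposited scale and at -0.49 and -0.57 with equal totals.

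Phosphorylation of eIF2 is set by 4 kinases and by the phosphatase subunits Ppp1r15a and Ppp1r15b, which were listed with Atf4 and Impact, a regulator of GCN2. Of these 8 genes, 3 rose and 1 fell in each comparison with LPS/IFNγ (limma), where 12.4% of all genes rose and 11.6% fell in naïve and 10.7% and 8.95% in efferocytic Mϕ. Their median difference came to 0.12 for LPS vs Ctrl and to 0.62 for LPSEff vs Eff. The median for LPS vs Ctrl turned to -0.28 with equal totals, when 3 rose and 3 fell (8.71% and 26.5% of all genes), and to -0.12 with quantile normalization. Eif2ak2, the kinase PKR that senses double-stranded RNA, had 470.3 and 383 normalized counts in Ctrl, 1689 and 2580 in LPS, and 308 and 320 in Eff against 1485 and 2221 in LPSEff. It rose by 2.29 (SE 0.27, adjusted p = 0.000808, limma) and by 2.53 (SE 0.27, adjusted p = 0.000535) on the log2 scale. Ppp1r15a, the inducible subunit (GADD34) that directs dephosphorylation of eIF2, rose by 1.93 (adjusted p = 0.00132) and by 1.80 (adjusted p = 0.00212), and its constitutive counterpart Ppp1r15b by 1.26 in both. Eif2ak4, the amino acid sensor GCN2, fell by 1.03 (adjusted p = 0.00944) and by 1.04 (adjusted p = 0.0107), and the first did not pass without Ctrl replicate 1 (adjusted p = 0.0680), nor the second without Eff replicate 1, Eff replicate 2 or LPSEff replicate 1. Atf4, the transcription factor downstream of eIF2 phosphorylation, differed by 0.31 (adjusted p = 0.378, limma) and 0.48 (adjusted p = 0.181). With a replicate block 5 of the 8 genes were higher and 2 lower in LPSEff vs Eff, where 19% and 18% of all genes were. In LPS vs Ctrl the block called 3 higher and 2 lower, where 20.5% and 20.7% of all genes were. There edgeR and DESeq2 also gave 3 higher and 2 lower, with 24.5% and 24.3% of all genes called.

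**Figure D5:**
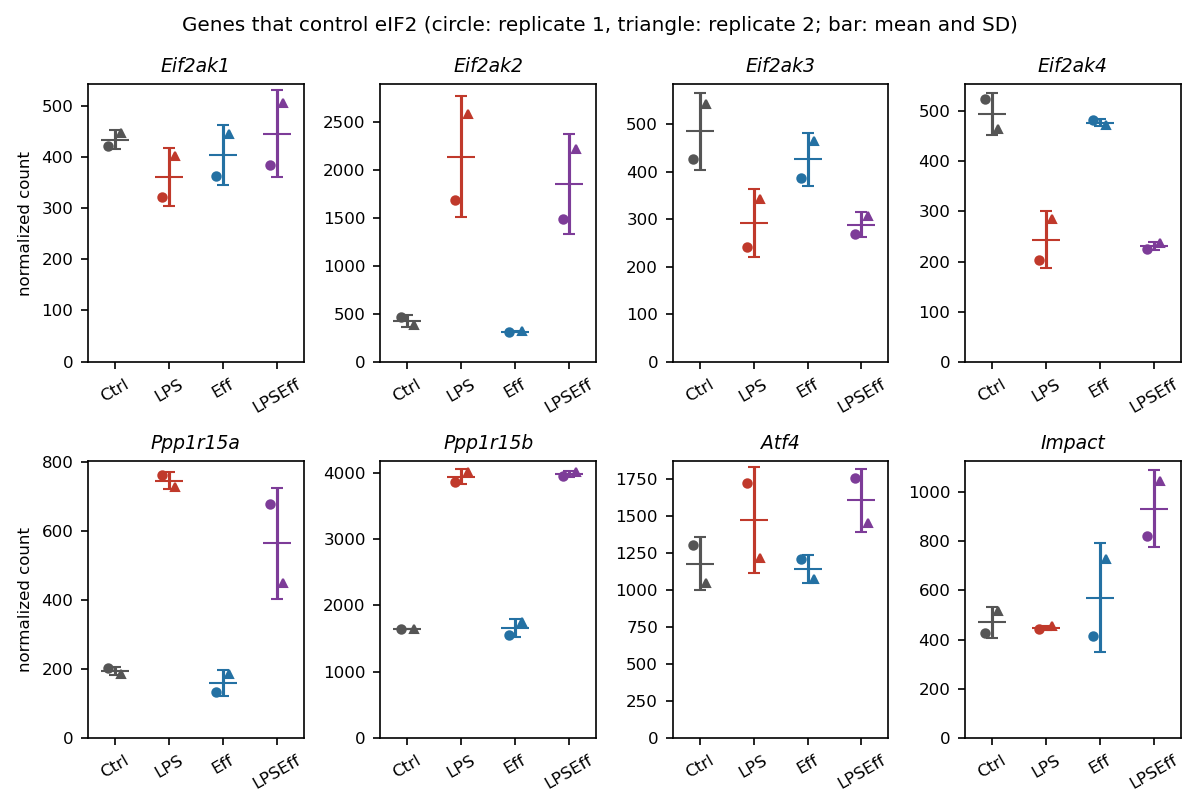
Normalized counts (y axes from 0) of the 4 eIF2 kinase genes, Ppp1r15a, Ppp1r15b, Atf4 and Impact in the 4 groups, with points for samples and bars for mean and SD (n = 2 per group). Eif2ak2 lies at 1485 or more in stimulated samples and at 470.3 or less in unstimulated ones.

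Of 17 genes of cap and poly(A) binding and its signalling, 5 rose and 4 fell in LPS vs Ctrl, and 3 rose and 2 fell in LPSEff vs Eff (limma), beside 12.4% and 11.6%, and 10.7% and 8.95%, of all genes. With equal totals 2 rose and 7 fell in LPS vs Ctrl, where 8.71% of all genes rose and 26.5% fell. In LPSEff vs Eff 2 rose and 6 fell on that scale, where 7.46% of all genes rose and 26.7% fell. In LPS vs Ctrl 3 rose and 0 fell without Ctrl replicate 1, 1 rose and 0 fell without Ctrl replicate 2, 3 rose and 1 fell without LPS replicate 1, and 3 rose and 4 fell without LPS replicate 2. Fewer of all genes were called in each of these fits too, which left 1 sample in a group. Denr, which helps reinitiation and tRNA recycling, had 404 and 486 normalized counts in Ctrl, 1709 and 1359 in LPS, and 388 and 463 in Eff against 2103 and 2086 in LPSEff. It rose by 1.78 (SE 0.20, adjusted p = 0.000618, limma) and by 2.30 (SE 0.20, adjusted p = 0.000173). Pdcd4, an inhibitor of eIF4A, rose by 1.92 (SE 0.59, adjusted p = 0.0481) in naïve Mϕ and did not pass without Ctrl replicate 1, Ctrl replicate 2 or LPS replicate 2. Paip2b, a repressor of poly(A)-binding protein, fell by 1.48 (adjusted p = 0.0167) in naïve Mϕ and did not pass without Ctrl replicate 1, Ctrl replicate 2 or LPS replicate 1. In efferocytic Mϕ Pabpc1, the poly(A)-binding protein, rose by 1.41 (adjusted p = 0.00450, limma) and Mknk1, a kinase of eIF4E, fell by 1.23 (adjusted p = 0.00479). Both moved the same way in naïve Mϕ. Pabpc1 had 1352 and 1258 normalized counts in Ctrl against 2733 and 3037 in LPS, and Mknk1 554 and 619 against 281 and 367. Of the 17 genes, 0 passed in the test of the difference between both effects.

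Of 7 genes of termination, recycling and hypusination tested, Abce1, which splits ribosomes after termination, fell by 1.29 (SE 0.24, adjusted p = 0.00615, limma) in naïve and by 1.08 (adjusted p = 0.0146) in efferocytic Mϕ, where it did not pass without Eff replicate 1, Eff replicate 2 or LPSEff replicate 1. Hbs1l, a rescue factor, rose by 0.67 (adjusted p = 0.0446) in naïve Mϕ and did not pass in 12 of 18 alternatives. All 10 mitochondrial translation factors had negative differences in both comparisons, with medians of -0.48 and -0.46, and only Mtif3, an initiation factor, passed, in naïve Mϕ (it fell by 0.71, adjusted p = 0.0377, and did not pass in 10 of 18 alternatives). Of all 16309 genes, 8245 had a negative difference in LPS vs Ctrl and 8102 in LPSEff vs Eff. On the deposited scale 11.6% and 8.95% were called lower. With equal totals 5 of the 10 mitochondrial genes were lower in each comparison, where 26.5% and 26.7% of all genes were. On that scale 3 and 4 of the 7 termination genes were lower. With the replicate block 4 and 3 of the 10 were lower, and 2 and 3 of the 7, where 20.7% and 18% of all genes were. The block called 2 and 1 of the 7 higher, where 20.5% and 19% of all genes were. With efferocytosis none of the genes of these 4 lists passed with limma on the deposited scale without a replicate block, and DESeq2 called 1 higher in LPSEff vs LPS, Impact. In that comparison the block called 1 eIF2 control gene higher, and 1 higher and 2 lower of the cap and poly(A) list. Of all genes, 4.32% were higher and 2.65% lower.

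The promoter windows of these genes were searched for the E-box CACGTG, the site of Myc and of Mitf/Tfe family factors, which reads the same on both strands. RefSeq windows (GRCm38.p6, 250 bases before to 50 after the start) were matched for 49 of the 63 genes, and 13 of them (26.5%) held the motif, compared with 11.6% of 10235 tested genes and 8.09% of all 27025 genes with a window. The sites of Eef2k, which fell, and of its substrate Eef2 and the cap-binding Eif4e, which were not called on the deposited scale, are shown with the motif in capitals, and Eif4e holds 2 of them.
Eef2k, chr7:120842790-120842815, + strand, 31 bases upstream: cggggacggcCACGTGagcccgggcg
Eef2, chr10:81176578-81176603, + strand, 43 bases upstream: ccggcgccgtCACGTGacgcacccaa
Eif4e, chr3:138527030-138527055, + strand, 228 bases upstream: cgccagcgacCACGTGatcacttttt
Eif4e, chr3:138527194-138527219, + strand, 64 bases upstream: acacgtccgtCACGTGggcaggagcc
The median log2 difference in LPS vs Ctrl was -0.09 for the 13 genes with the motif and -0.13 for the 36 without it, and 1 and 4 of them passed. In LPSEff vs Eff the medians were -0.13 and -0.14. A match describes these letters only.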

How the data were processed

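Total RNA of 8 samples (4 groups of 2) was sequenced after rRNA depletion. According to the submitters' notes and the methods, reads were trimmed with cutadapt, cleared of rRNA with Bowtie2, aligned to mm39 with STAR, counted with HTSeq and divided by DESeq2 size factors, and tool versions are not given in the sources used here. The deposited values are a signal, namely counts divided by size factors by the authors, and 100% of them came out as whole reads (tolerance 0.001). Depth was 3481288 to 12020918 reads. The main test was limma 3.58.1 (R 4.3.3, with trend) on log2(normalized count + 1), over 16309 genes with a mean of at least 10, with 4 group means, 4 residual degrees of freedom and Benjamini-Hochberg adjustment. Counts recovered from the values were tested with edgeR 4.0.16 and DESeq2 1.42.0. Other alternatives were the pseudocount, the filter, the samples fitted, a replicate block, equal totals, quantile normalization and leaving out each sample. An exact permutation test of 2 against 2 cannot go below p = 0.333 and was not used. Scripts ran in Python 3.11.15 and were tested on simulated data.

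Genes named in the text are those called in the main test or in an alternative, a fixed set of core factors (among them Eif1, Eif2s1, Eif4e, Eif4g1, Eif5a, Eef1a1 and Eef2), up to 3 called genes with the largest difference of each related list, and those next to the minimum. Beyond the rule, Eefsec, Eif4ebp3, Eef1akmt genes as a group, Atf4 and marker genes were named after their values were seen. The 63 genes and all lists were chosen with earlier results of these data known. Windows of 50 bases of a transcript that also occur elsewhere in the genome, outside the locus of the gene, mark genes whose reads may be split or lost in counting. Whether those places lie in other genes was not tested.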

Additional observations from a re-analysis of the deposited data

How the results depend on the processing

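Leaving out 1 sample at a time left 1 sample in its group, and fewer of all genes were called in the comparisons of that group. The counts of the 63 genes changed as follows. In LPS vs Ctrl, 0 to 1 were higher and 2 to 6 lower, and the median lay between -0.24 and 0.10, positive only without Ctrl replicate 2. Without Ctrl replicate 1 the 2 lower genes were Eef2k and Eif4ebp2, and without Ctrl replicate 2 there were 3. In LPSEff vs Eff, 0 to 1 were higher and 2 to 4 lower (median -0.24 to -0.10), and Eif6 did not pass without Eff replicate 2 or LPSEff replicate 1. For Eff vs Ctrl, LPSEff vs LPS and the difference between effects, 0 passed throughout, with medians of -0.085 to 0.13 in Eff vs Ctrl, -0.17 to 0.11 in LPSEff vs LPS and -0.20 to 0.086 for the difference. Eef2k and Eif4ebp2 passed in 18 of 18 alternatives in both comparisons.

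In LPS vs Ctrl the number higher was 0 with only the groups compared, 0 with equal totals, 0 with quantile normalization and 2 with DESeq2. The number lower was 22 with equal totals (26.5% of all genes lower) and 14 with quantile normalization (14.1% of all genes lower), with medians of -0.49 and -0.24. In LPSEff vs Eff 0 were higher with equal totals. The number lower was 27 with equal totals (26.7% of all genes lower), 14 with quantile normalization (12.9% of all genes lower) and 5 with edgeR. The medians were -0.57 with equal totals and -0.34 with quantile normalization. Depth limits the genes of low count, and 2 samples per group limit all.

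Replicate numbers are shared between groups, but the labels do not say what they mark. Differences between replicates correlated by 0.404 to 0.595 across genes for the 6 pairs of groups. With a replicate block, 3 genes were higher and 11 lower in LPS vs Ctrl, where 20.5% of all genes were higher and 20.7% lower. In LPSEff vs Eff 1 (Eif6) was higher and 11 lower, where 19% of all genes were higher and 18% lower. In LPSEff vs LPS 1 (Eef1a1) was lower, where 2.65% of all genes were. The block added Eif3f and Eif4e2 (higher), Eif1ad, Eif2b1, Eif2s3x, Eif3b and Eif4b in LPS vs Ctrl, and Eef1e1, Eif1ad, Eif2b1, Eif2b3, Eif2b4, Eif2d, Eif3g and Eif4b in LPSEff vs Eff. In LPSEff vs LPS it also called 1 of the eIF2 control genes higher, and 1 higher and 2 lower of the cap and poly(A) list.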
